A study of Mus musculus with 2 samples.

Results

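The forkhead genes encode transcription factors that share a winged-helix DNA-binding domain. The genes described here are the 40 protein-coding genes of the GENCODE M21 annotation whose symbol is Fox, a letter from a to s and a number, out of 44 such genes and out of 21938 protein-coding genes in all. Foxd1, Foxc1, Foxc2 and Foxi1 were left out. Forkhead proteins bind variants of a short core motif, and several of them, above all the FOXA proteins, can open closed chromatin. FOXF and FOXL1 proteins act in mesenchyme next to Hedgehog-secreting epithelia, FOXO proteins are held out of the nucleus when insulin and PI3K-Akt signals are active, FOXM1 drives genes of mitosis, FOXJ1 switches on genes of motile cilia, and FOXP proteins act mostly as repressors. In the developing kidney the family is best known through Foxd1 in the stroma and Foxc1 and Foxc2 in the nephron lineage, which are among the genes left out.

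The study profiled open chromatin in single nuclei of B6 mouse kidneys at E15.5, in 1 Enl-WT library and 1 Enl-T1 library. ENL (Mllt1) is a chromatin reader that binds acylated histones through its YEATS domain, and T1 is a small in-frame insertion in that domain found in Wilms tumor. Enl-WT embryos were Enl+/+ Wt1GFPCre/+ and Enl-T1 embryos were Enl flox-T1/+ Wt1GFPCre/+, so that both carried 1 Wt1 allele replaced by GFPCre. Cre under the Wt1 promoter acts in nephron and stroma progenitors, and the ureteric epithelium and endothelium lie outside its lineage. How many embryos each library pools is not stated in the labels or methods, and the Enl genotype cannot be read from peak counts.

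Each library had its own peak calls, 159560 in Enl-WT and 130027 in Enl-T1, and 110706 joined regions held a peak of both (shared regions). After a filter of 2000 to 100000 counts per barcode, 9472 Enl-WT nuclei with a median of 14789.5 counts and 12635 Enl-T1 nuclei with a median of 8753 counts were kept, and 149 barcode sequences occurred in both. A level is given as CPM, the counts in a gene's shared regions scaled to 1000000 counts in all shared regions, summed over the nuclei of a class. Levels carry 95% exact Poisson intervals, and Enl-T1 to Enl-WT ratios carry exact conditional binomial intervals in parentheses. Both cover counting error only: with 1 library per group there is no replicate, no test and no p-value, and differences describe these 2 libraries. A gene or region is called past the fold when the ratio is at least 1.5 in either direction with at least 200 counts over both libraries.

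Nuclei were clustered without the regions of the forkhead genes and the 22 clusters, numbered from 0 by size, were named from marker genes. The classes with at least 100 Enl-WT nuclei were nephron progenitor (2230 in Enl-WT, 4205 in Enl-T1), interstitial stroma (2890 and 4732), ureteric epithelium (871 and 1721), nephron tubule (1790 and 194), endothelial (682 and 505), podocyte (366 and 5) and immune (101 and 170). Nephron progenitor markers stood higher in the nephron progenitor class than in the rest for 9 of 10 markers in either library, with a summed level of 416 CPM in Enl-WT and 357 CPM in Enl-T1. The nephron progenitors of the libraries lay in different clusters, those of Enl-WT in clusters 3 and 13 and those of Enl-T1 in clusters 0, 4 and 12, and in cluster 0, which held no Enl-WT nucleus, 3 of 10 of these markers were raised. A difference between the libraries in this class and a difference between these clusters therefore cannot be told apart. Enl-T1 was set against Enl-WT only in the 4 classes with at least 200 nuclei in both libraries.

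In all, 267 regions lay over 39 of the 40 genes or in the 2 kb upstream. No peak of either library lay over Foxr2. By position, 167 regions were intronic, 60 lay within 1 kb of a transcription start site (TSS) of the gene, 34 touched an exon and 6 lay upstream. Both libraries had a peak in 177 regions, Enl-WT alone in 64 and Enl-T1 alone in 26. Over all protein-coding genes the shares were 64.2%, 26.9% and 8.9%. A few genes held most regions: 81 over Foxp1, 51 over Foxn3 and 18 over Foxp2, which are long genes, while 10 genes had a single one. Shared regions existed for 38 genes, all of which passed the minimum of 200 counts in whole libraries. Foxl2, which directs ovarian differentiation, had only a peak of Enl-WT, of 928 counts at chr9:98956278-98957359.

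Compared per kb of region, the highest whole-library levels belonged to Foxh1, with 55.6 CPM per kb in Enl-WT and 53.5 in Enl-T1, and Foxa3, with 50.1 and 48.7. The region counted for Foxh1, a SMAD partner in Nodal signalling, lay upstream of it and also within 1 kb of the start of Ppp1r16a, and that of Foxa3 lay within 1 kb of the start of Sympk, so these levels cannot be assigned to either gene. Foxj1 followed with 37.0 and 38.3 CPM per kb in a region at its own start and no other. Foxp3, the factor of regulatory T cells, had 24.4 and 32.4 in a region it shares with Ppp1r3f, and Foxd2 had 23.9 and 25.6 in regions shared with the noncoding Foxd2os. The lowest level per kb was that of Foxr1, with 2.73 in Enl-WT and 3.09 in Enl-T1.

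In Enl-WT, 8 of the 38 genes with a shared region led in a class, meaning that their level in the highest of 7 classes was at least 2 times that in the median class, where 18.3% of all genes tested did so. They were Foxa1 and Foxq1 in ureteric epithelium, Foxs1 and Foxl1 in podocytes, Foxp2 in interstitial stroma, Foxn4 in nephron tubule, and Foxr1 and Foxb2 in immune nuclei. Foxn1 came just short with 1.996 times the median class.

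**Figure D1:**
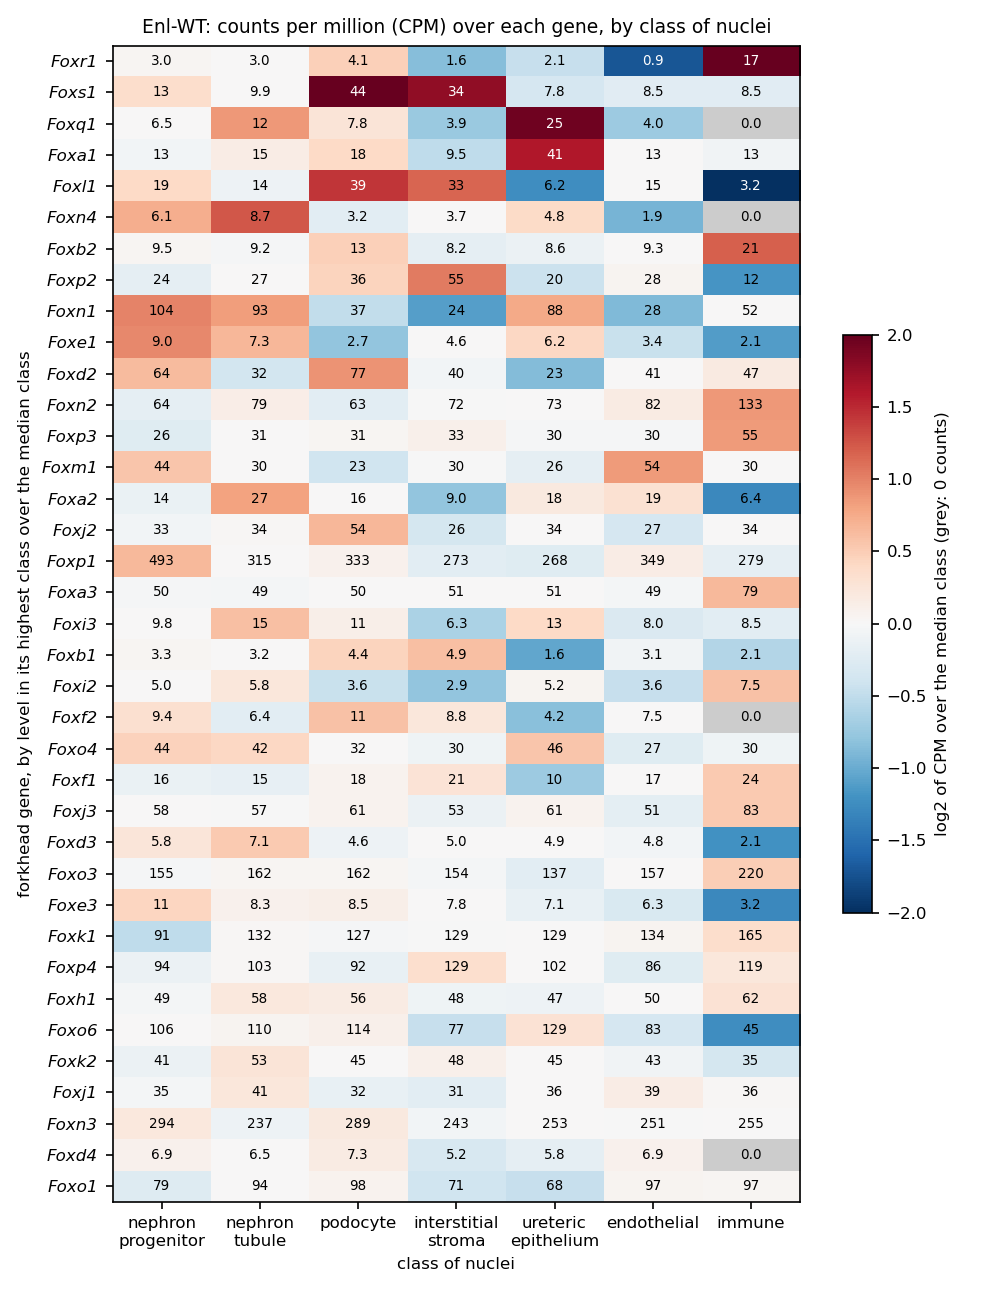
Levels of 37 forkhead genes with a shared region in the 7 classes of Enl-WT nuclei, as CPM printed in each cell and coloured by log2 of the ratio to the gene's median class. Genes are ordered by the lead of their highest class. Foxa1 and Foxq1 are darkest in ureteric epithelium, at 41 and 25 CPM, and Foxs1 and Foxl1 in podocytes and interstitial stroma, while most genes below the first 8 vary little.

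The epithelial members were led by Foxa1, a pioneer factor of endoderm-derived epithelia, and Foxq1, which is known from epithelial cells. Foxa1 stood at 40.9 CPM (36.0 to 46.4) in ureteric epithelium of Enl-WT and between 9.49 and 17.8 CPM in the other classes, with podocytes next. In Enl-T1 it stood at 55.0 CPM (49.8 to 60.5) in ureteric epithelium and at 12.7 CPM in nephron progenitors and 10.7 CPM in stroma. Foxq1 had 25.2 CPM (21.4 to 29.5) in ureteric epithelium and 11.97 CPM (10.1 to 14.1) in nephron tubule, followed by 3.89 to 7.79 CPM elsewhere and no count in immune nuclei, where the upper bound of the interval is 7.85 CPM. Its Enl-T1 level in ureteric epithelium was 29.9 CPM (26.2 to 34.1). The intervals of ureteric epithelium did not overlap those of the next class for either gene in Enl-WT. Foxa2, the other pioneer factor of this subfamily, was highest in nephron tubule, at 27.3 CPM (24.5 to 30.4), against 17.8 CPM (14.6 to 21.5) in ureteric epithelium. Foxi3 followed the same order with 14.9 CPM (12.8 to 17.2) in tubule and 13.0 CPM (10.3 to 16.2) in ureteric epithelium, whose intervals overlap.

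Foxa1 is shown with its promoter because it was the only member whose promoter window held the letters of the forkhead core motif, TGTTTAC or its reverse complement GTAAACA. Promoter windows of 250 bases before to 50 bases after the start were found for 25 of the 40 genes in RefSeq (GRCm38.p6), as 30 windows, and 1 of the 30 (3.33%) held the motif on either strand against 3.65% of 32900 windows of all genes. The stretch of the window that ends shortly before the start is printed, chr12:57546132-57546361 on the minus strand, with the motif in capitals at position 110:
Foxa1 promoter: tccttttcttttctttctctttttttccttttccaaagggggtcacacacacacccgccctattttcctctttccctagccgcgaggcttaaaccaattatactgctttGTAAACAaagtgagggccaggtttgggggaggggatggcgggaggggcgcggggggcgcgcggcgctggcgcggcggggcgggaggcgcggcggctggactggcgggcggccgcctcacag
The match lay inside the shared region at chr12:57545293-57547406, where the libraries had 1897 and 1970 counts. A match of letters is a description and not evidence that a protein binds there.

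The ureteric epithelium fell into 2 clusters, and Foxa1 and Foxq1 separated them in both libraries. The smaller, cluster 14, held 162 Enl-WT and 715 Enl-T1 nuclei, and the larger, cluster 2, held 709 and 1006. Foxa1 stood at 72.6 CPM in the smaller and 33.7 CPM in the larger cluster of Enl-WT, a ratio of 2.16, and at 82.7 and 37.6 CPM in Enl-T1, a ratio of 2.199. Foxq1 stood at 50.5 and 19.4 CPM in Enl-WT, a ratio of 2.60, and at 47.2 and 19.1 CPM in Enl-T1, a ratio of 2.47. Foxf1, a mesenchymal factor, was lower in the smaller cluster, at 5.76 against 11.2 CPM in Enl-WT and 7.69 against 11.5 CPM in Enl-T1, with few counts. The interval of its log2 ratio between the clusters held 0 in Enl-WT (-2.40 to 0.21) and in Enl-T1 (-1.36 to 0.15). At least 1.5 times higher in the smaller cluster of both libraries were thus 2 of 30 forkhead genes, against 1.54% of all genes tested, and 1 of 30 was as much lower, against 2.12%. Since the smaller cluster made up 18.6% of ureteric nuclei in Enl-WT and 41.5% in Enl-T1, the class level of Foxa1 mixes both: the log2 ratio of Enl-T1 to Enl-WT was 0.42 (0.19 to 0.66) over the class, but 0.16 (-0.16 to 0.47) within the larger and 0.19 (-0.18 to 0.57) within the smaller cluster. For Foxq1 the ratios within the clusters were -0.02 and -0.10.

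**Figure D2:**
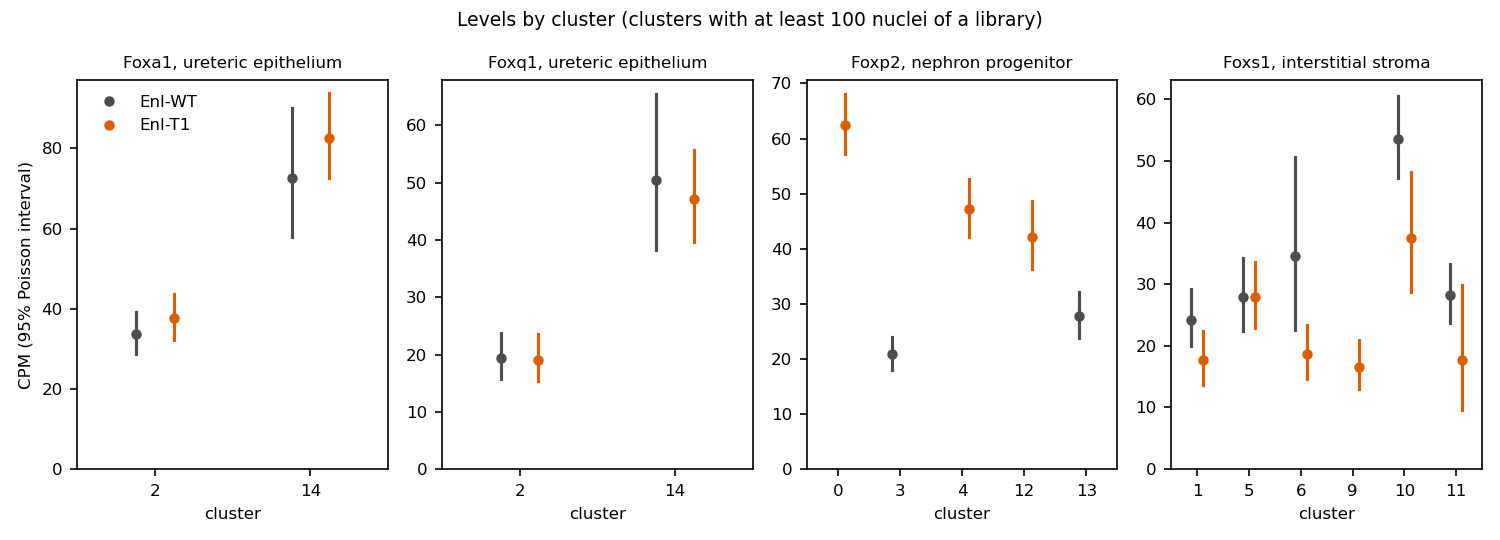
Levels of 4 forkhead genes in CPM with 95% Poisson intervals, by cluster of the class named in each panel, for clusters with at least 100 nuclei of a library. Foxa1 and Foxq1 are higher in cluster 14 than in cluster 2 in both libraries, Foxp2 in nephron progenitors is higher in the 3 Enl-T1 clusters (42.1 to 62.5 CPM) than in the 2 Enl-WT clusters, and Foxs1 in stroma is level between libraries in cluster 5.

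Among members known from mesenchyme, Foxs1, which is expressed in neural crest derivatives and pericytes, had 43.8 CPM (35.2 to 53.8) in podocytes and 34.1 CPM (31.4 to 36.8) in interstitial stroma of Enl-WT, and 7.83 to 12.7 CPM in the other classes. Foxl1, a target of Hedgehog signalling in gut mesenchyme, had 39.4 CPM (31.3 to 49.0) in podocytes and 32.6 CPM (30.01 to 35.3) in stroma, then 19.2 CPM in nephron progenitors. For both genes the intervals of podocytes and stroma overlap, so that their order is not settled, and both stood above every other class. Foxf1 and Foxf2, which pattern gut and lung mesenchyme, had no such lead: Foxf1 ranged from 10.2 to 24.5 CPM over the 7 classes. Foxf2 ranged from 4.20 to 11.2 CPM, apart from immune nuclei, where it had no count. Foxd2, a paralogue of the stromal Foxd1, was highest in podocytes at 77.1 CPM (65.6 to 90.1) and nephron progenitors at 63.9 CPM (60.0 to 67.9) with intervals that overlap, and stood at 39.9 CPM in stroma.

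Foxp2, a repressor known from brain and lung, was highest in stroma of Enl-WT, at 54.8 CPM (51.4 to 58.3), above podocytes at 36.0 CPM (28.3 to 45.2). Its paralogue Foxp1 was highest in nephron progenitors, at 493 CPM (482 to 504) over 51 shared regions, with 268 to 349 CPM elsewhere. Foxp4 stood at 129 CPM (124 to 134) in stroma and 119 CPM (90.1 to 155) in immune nuclei, whose order is not settled. Foxp3 was highest in immune nuclei with 55.4 CPM (36.2 to 81.1) from 52 counts. Foxn1, best known from thymic epithelium, stood at 104 CPM (99.2 to 109) in nephron progenitors, 92.9 CPM (87.6 to 98.4) in tubule and 88.2 CPM (80.8 to 96.0) in ureteric epithelium, and at 24.2 CPM in stroma and 28.4 CPM in endothelium. The intervals of tubule and ureteric epithelium overlap. Foxn4, a retinal and spinal cord factor, led in tubule with 8.73 CPM (7.17 to 10.5) over nephron progenitors with 6.09 CPM (4.93 to 7.43), whose interval overlaps. The leads of Foxr1 and Foxb2 in immune nuclei rest on 16 and 20 counts.

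None of the FOXO genes, targets of PI3K-Akt signalling, led in a class of Enl-WT. Foxo1 ranged from 68.3 to 98.3 CPM, Foxo3 from 137 to 220 CPM, Foxo4 from 26.6 to 46.2 CPM, and Foxo6 from 44.7 CPM in immune nuclei to 129 CPM in ureteric epithelium. Foxk1 and Foxk2, linked to glycolysis and autophagy genes, ranged from 90.7 to 165 CPM and from 35.1 to 53.3 CPM, and the level of Foxk1 was lowest in nephron progenitors. Foxm1, the mitotic member, was highest in endothelium at 53.7 CPM (47.1 to 61.0), followed by nephron progenitors at 43.9 CPM (40.7 to 47.3), with intervals that just overlap. Its regions are shared with Rhno1 and Tex52, so these levels cannot be assigned to Foxm1 alone. Foxj1 was even across classes, at 30.8 to 41.3 CPM. The members Foxb1, Foxd3, Foxd4, Foxe1, Foxe3 and Foxi2 had at most 10.6 CPM in every class of Enl-WT, not scaled to region width.

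Over the 6 classes with at least 100 nuclei in both libraries, all 8 leading genes, among them Foxs1 and Foxl1 now in stroma, had their highest class in common between the libraries, and 6 of the 8 also led there in Enl-T1, against 61.5% of the 2965 genes that led in Enl-WT. The exceptions were Foxp2, with 1.84 times the median class in stroma of Enl-T1 after 2.18 in Enl-WT, and Foxn4, with 1.53 after 2.07.

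Set against Enl-WT as whole libraries, Enl-T1 had 1 of 38 forkhead genes higher by 1.5-fold or more, Foxf2, where 0.985% of all genes tested were, and none lower, where 0.896% were. In such sums, fewer nuclei of a class and fewer counts per nucleus cannot be told apart. The median log2 ratio was -0.06 over the forkhead genes and -0.03 over all genes. The interval lay above 0 for 8 genes, below 0 for 16 and held 0 for 14. The same count was not made over all genes, so nothing about the family is read from it. Foxf2 had a log2 ratio of 0.60 (0.43 to 0.78), just inside the fold, and Foxp2 of 0.58 (0.49 to 0.66) and Foxs1 of -0.56 (-0.70 to -0.42) fell just outside it. Over the alternatives that gave a value, Foxp2 ranged from 0.20 to 1.07 and was past the fold in 2 of 8, and Foxs1 ranged from -0.73 to -0.33 and was past it in 2 of 8. Without nuclei of under 5000 counts the ratio of Foxf2 was 0.58 and without likely doublets 0.55, both short of the fold. Scaled by the median of ratios instead, Foxs1 at -0.59 was the 1 gene past the fold, as lower, and Foxf2 stood at 0.57.

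Within classes, few forkhead genes passed the fold. In nephron progenitors Foxp2 was the only one of 38 higher in Enl-T1, where 1.43% of all genes were, and Foxs1 the only one lower, where 2.06% were. In interstitial stroma none of 37 was higher, where 0.928% of all genes were, and Foxs1 alone was lower, where 0.688% were. In ureteric epithelium Foxf2 alone of 30 was higher, where 0.858% were, and none was lower, where 0.559% were. In endothelium none of 22 was higher, where 0.994% were, and Foxa2 alone was lower, where 0.956% were. With 1 gene or none past the fold, nothing is read from these shares. The median log2 ratios were -0.01, -0.00, -0.07 and -0.11 in the 4 classes, and 0.00, 0.00, -0.02 and -0.01 over all genes. The interval held 0 for 22 of 38 genes in nephron progenitors, 22 of 37 in stroma, 23 of 30 in ureteric epithelium and 16 of 22 in endothelium. Intervals were not counted over all genes, so nothing about the family is read from these numbers.

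**Figure D3:**
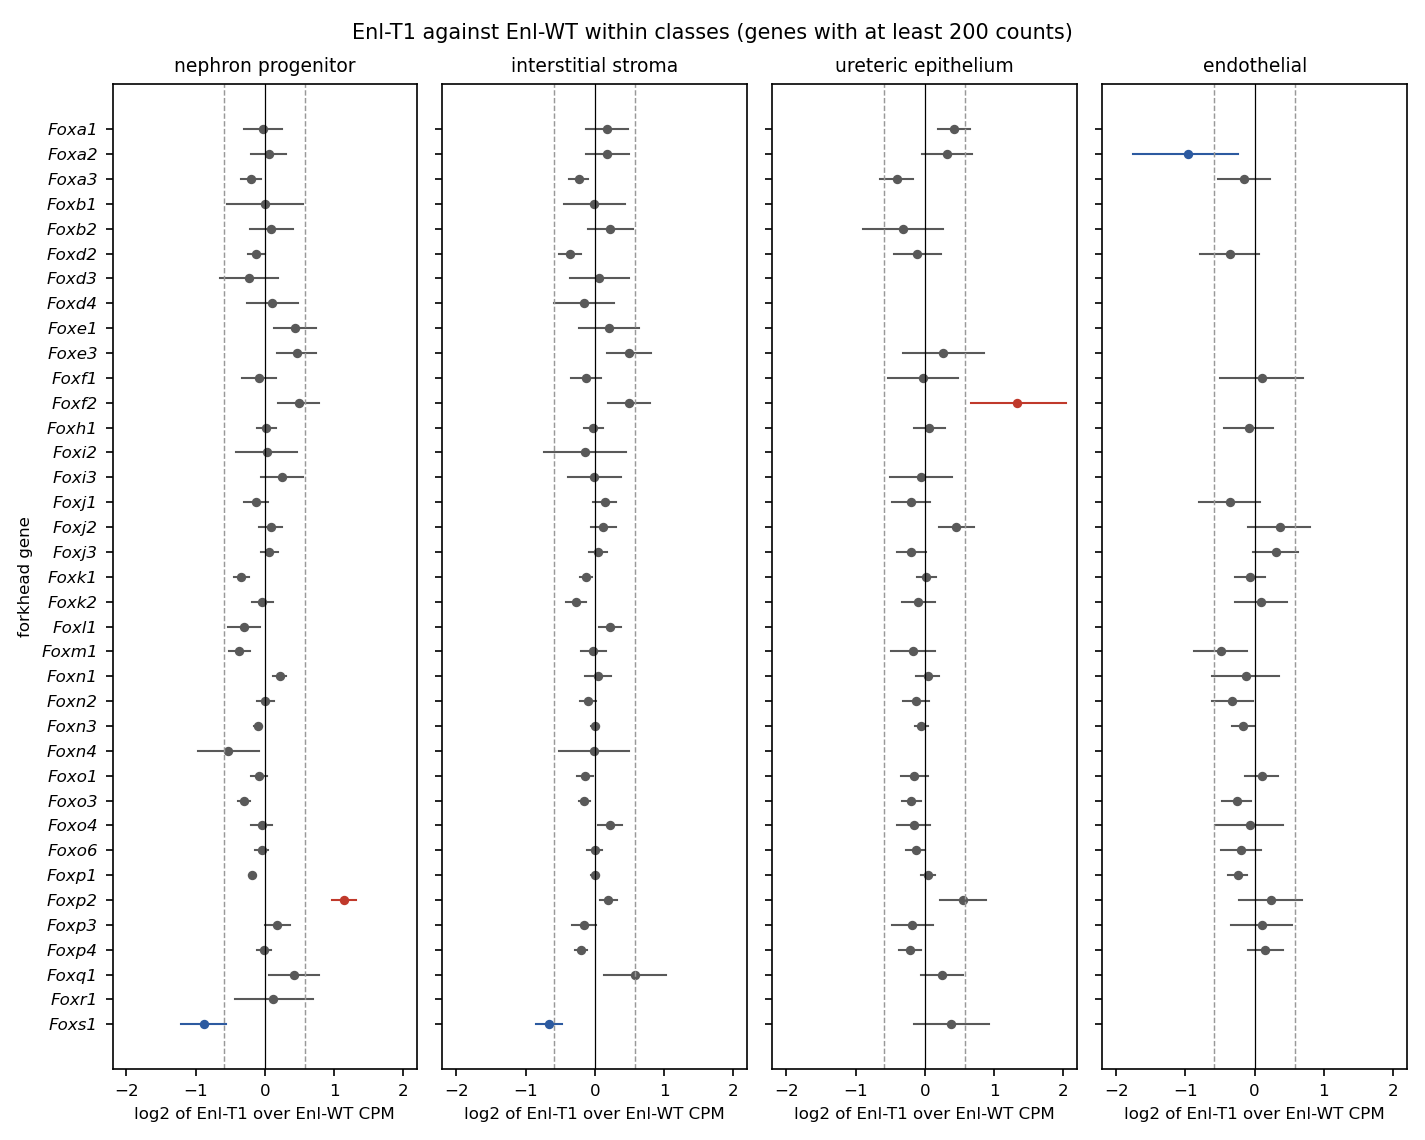
Log2 ratio of Enl-T1 to Enl-WT for 37 forkhead genes in 4 classes, with 95% intervals for counting error; genes under 200 counts are not drawn and dashed lines mark 1.5-fold. Red marks genes past the fold in the higher direction (Foxp2 in nephron progenitors, Foxf2 in ureteric epithelium) and blue in the lower (Foxs1 in nephron progenitors and stroma, Foxa2 in endothelium), and the other genes lie around 0.

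Foxp2 passed the fold in nephron progenitors, where it had 744 counts and 23.6 CPM (21.2 to 26.1) in Enl-WT and 2080 counts and 52.2 CPM (49.1 to 55.5) in Enl-T1, for a log2 ratio of 1.15 (0.97 to 1.32). It stood at 20.8 and 27.8 CPM in the 2 Enl-WT clusters of this class and at 62.5, 47.2 and 42.1 CPM in the 3 Enl-T1 clusters, which do not overlap, and it was highest in cluster 0. Without cluster 0 the ratio was 0.93, and over the regions that match by 80% in both libraries it was 0.65. The 84 Enl-T1 nuclei that fell into cluster 3 with most Enl-WT progenitors had 42.3 CPM (24.4 to 68.1) from 33 counts. The ratio was 0.55 (0.22 to 0.89) in ureteric epithelium, 0.20 (0.07 to 0.32) in stroma and 0.24 (-0.22 to 0.68) in endothelium, so that in Enl-T1 the level in nephron progenitors came close to the 62.8 CPM of stroma.

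The difference was not even along the gene, which runs over chr6:14901349-15441977 on the plus strand. The region at the first TSS (region 1, chr6:14900770-14901647) went from 213 to 598 counts in nephron progenitors, 6.75 to 15.0 CPM, a log2 ratio of 1.15 (0.83 to 1.49), and was also higher in stroma, at 0.86 (0.59 to 1.14), and ureteric epithelium, at 1.38 (0.84 to 1.95). Its peak was wider in Enl-T1, at 839 bp against 513 bp. Region 4 (chr6:15186489-15187747), within 1 kb of an internal TSS, went from 84 to 590 counts in nephron progenitors, 2.66 to 14.8 CPM, a log2 ratio of 2.48 (2.01 to 2.98), with a narrower peak in Enl-T1, at 942 bp against 1259 bp. In stroma the same region had 164 and 197 counts. Around it lay 4 peaks of Enl-T1 alone, of 509, 707, 608 and 176 counts over all nuclei, within chr6:15184110-15193668, and those of 509 and 707 counts each lie at an internal TSS. Of the 608 counts of region 5, 454 came from nephron progenitors and 76 from stroma, whereas of the 707 counts of region 3, 184 came from nephron progenitors and 418 from stroma. Further 3′, region 7 went from 85 to 189 counts in nephron progenitors, 0.82 (0.28 to 1.37), and the exonic region 17 from 79 to 208, 1.06 (0.52 to 1.63). In stroma the intronic region 8 was lower in Enl-T1, from 148 to 78 counts, with a log2 ratio of -0.95 (-1.54 to -0.37).

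**Figure D4:**
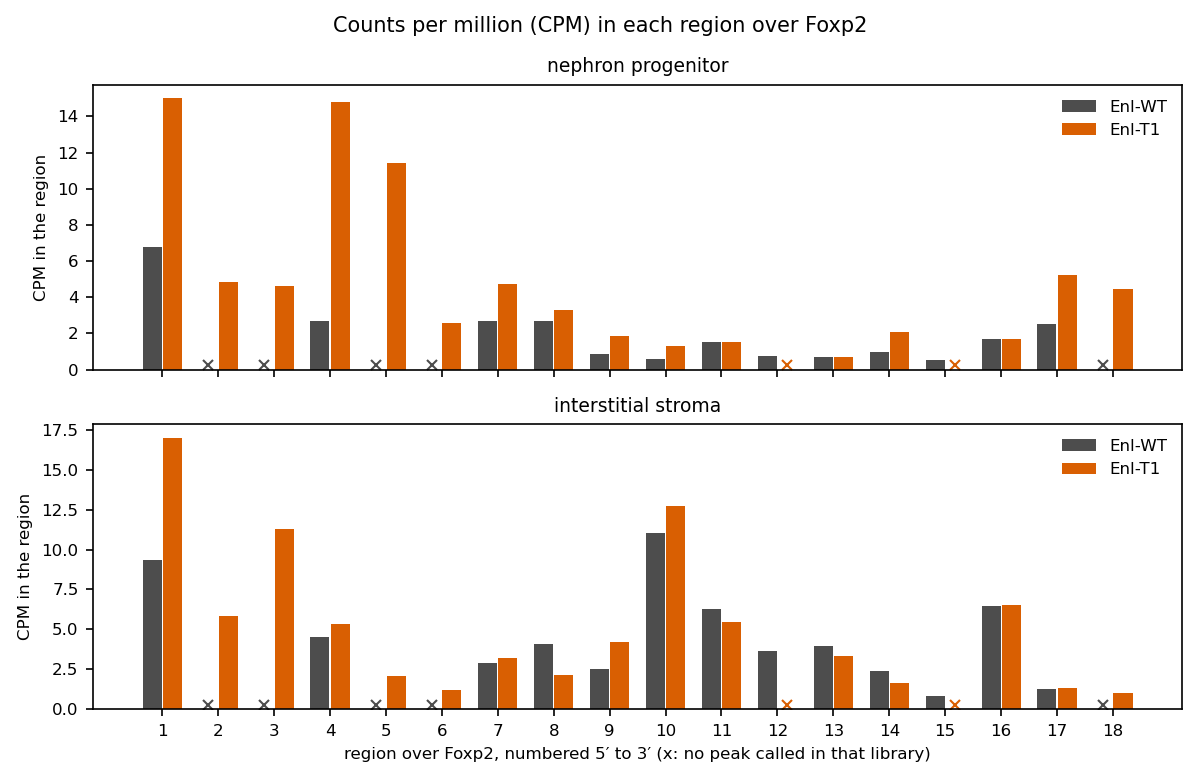
CPM in each of the 18 regions over Foxp2, numbered 5′ to 3′, in nephron progenitors and interstitial stroma, with a cross where a library had no peak. In nephron progenitors the tallest Enl-T1 bars are regions 1, 4 and 5, at 15.0, 14.8 and 11.4 CPM, and the Enl-WT bars of regions 1 and 4 are 6.75 and 2.66 CPM, while in stroma region 10 is tall in both libraries.

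The sequences of the 2 Foxp2 regions are shown because they had the largest ratios in nephron progenitors among the gene's shared regions with at least 200 counts. Both come from the RefSeq genome (GRCm38.p6), plus strand, with CG dinucleotides in capitals. That of region 1 covers chr6:14901059-14901338 and has 14 of them, mostly at its 3′ end, and that of region 4 covers chr6:15186968-15187267 and has 7:
Foxp2 region 1: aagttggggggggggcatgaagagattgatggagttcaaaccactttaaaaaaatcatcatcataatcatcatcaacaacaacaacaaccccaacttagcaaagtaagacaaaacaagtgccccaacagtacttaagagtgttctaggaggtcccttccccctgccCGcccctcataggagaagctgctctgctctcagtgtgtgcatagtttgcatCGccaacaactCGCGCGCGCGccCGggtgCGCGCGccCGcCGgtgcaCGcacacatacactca
Foxp2 region 4: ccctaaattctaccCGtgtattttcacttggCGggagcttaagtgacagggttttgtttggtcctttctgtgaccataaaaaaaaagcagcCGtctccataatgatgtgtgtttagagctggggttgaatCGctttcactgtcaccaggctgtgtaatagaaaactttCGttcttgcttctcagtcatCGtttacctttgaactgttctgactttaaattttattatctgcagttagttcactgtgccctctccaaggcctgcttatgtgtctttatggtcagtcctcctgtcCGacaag
Neither stretch held the forkhead core motif.

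Foxs1 had the opposite direction. In nephron progenitors it went from 401 counts and 12.7 CPM (11.01 to 14.6) in Enl-WT to 274 counts and 6.88 CPM (5.77 to 8.13) in Enl-T1, for a log2 ratio of -0.89 (-1.21 to -0.57). In stroma it went from 1242 counts and 34.1 CPM to 796 counts and 21.5 CPM (19.5 to 23.7), a ratio of -0.66 (-0.85 to -0.48). The nephron progenitor clusters stood at 10.9 and 15.52 CPM in Enl-WT and 5.89, 7.23 and 8.30 CPM in Enl-T1. Of the latter, cluster 12 (5.84 to 11.4) and cluster 4 (5.34 to 9.57) overlap in their intervals with cluster 3 of Enl-WT (8.85 to 13.2), and cluster 0 (4.35 to 7.80) does not. Within the stroma clusters that held both libraries the ratio was -0.46 in cluster 1, 0.00 in cluster 5, -0.89 in cluster 6, -0.51 in cluster 10 and -0.67 in cluster 11, where the interval held 0, so that cluster 5 showed no difference (-0.42 to 0.42). Cluster 9, almost wholly of Enl-T1, stood at 16.6 CPM. In ureteric epithelium the ratio was 0.38 (-0.16 to 0.93). Over matched regions the stroma ratio was -0.53, and without likely doublets the nephron progenitor ratio was -0.58, both short of the fold. The nuclei were clustered anew without doublets, and the nephron progenitor class then held 2063 Enl-T1 nuclei instead of 4205. The -0.58 thus also reflects a changed class.

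Foxs1 had 2 regions, of which the one over its start (region 2, chr2:152932928-152933949) was lower in nephron progenitors, with a log2 ratio of -0.95 (-1.34 to -0.55), and in stroma, at -0.77 (-1.02 to -0.52), with a peak of 957 bp in Enl-WT against 814 bp in Enl-T1. The other was lower in nephron progenitors, at -0.76 (-1.34 to -0.19). The stretch of region 2 upstream of the gene, chr2:152933289-152933588 (GRCm38.p6, RefSeq, plus strand), is given since this region holds most of the gene's counts. It has 5 CG dinucleotides, in capitals, and a run of CA repeats:
Foxs1 region 2: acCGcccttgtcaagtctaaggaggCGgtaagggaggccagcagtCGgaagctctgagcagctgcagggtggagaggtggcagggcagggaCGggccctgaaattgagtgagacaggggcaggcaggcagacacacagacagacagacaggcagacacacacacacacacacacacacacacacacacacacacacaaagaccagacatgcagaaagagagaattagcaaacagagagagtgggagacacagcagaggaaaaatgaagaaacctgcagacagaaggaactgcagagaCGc

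Foxf2 passed the fold in ureteric epithelium, with 51 counts and 4.20 CPM (2.73 to 6.18) in Enl-WT and 161 counts and 10.6 CPM (8.40 to 13.2) in Enl-T1, for a log2 ratio of 1.33 (0.67 to 2.04). Without likely doublets it was under the minimum of 200 counts. Within the larger ureteric cluster the ratio was 1.502 (0.75 to 2.31), and within the smaller, from 10 and 51 counts, 0.98 (-0.43 to 2.72). It was 0.49 (0.19 to 0.79) in both nephron progenitors and stroma. The single shared region was 1220 bp wide in Enl-WT against 1890 bp in Enl-T1, and per kb the whole-library levels were 6.52 and 6.38 CPM, which are close, whereas those in ureteric epithelium were 3.44 and 5.60. The peak is at the Foxf2 start and within 1 kb of the noncoding 1700018A04Rik and Gm27516. A stretch of the promoter that ends shortly before the RefSeq start, chr13:31625566-31625795 on the plus strand (GRCm38.p6), is shown as an example of the CG-rich promoters common among these genes, with its 19 CG dinucleotides in capitals:
Foxf2 promoter: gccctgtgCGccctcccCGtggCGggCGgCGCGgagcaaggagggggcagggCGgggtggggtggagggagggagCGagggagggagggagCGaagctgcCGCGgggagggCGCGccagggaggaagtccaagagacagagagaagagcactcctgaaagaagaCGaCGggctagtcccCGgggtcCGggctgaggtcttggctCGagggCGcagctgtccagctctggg
Of the 30 forkhead promoter windows 16 held at least 20 CG dinucleotides, against 26.5% of all windows, with a median of 22 against 7 and a range of 3 to 59. The letters TATAAA, searched on the window's own strand alone, were in 2 of the 30 windows, those of Foxa3 and Foxp3, against 8.32% of all. In the middle 300 bases of the 267 regions the forkhead motif occurred in 16 (5.99%), against 4.98% of 176005 regions, and 10 of the 16 lay over Foxp1.

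Foxa2 in endothelium rests on few counts: 169 counts and 19.1 CPM (15.3 to 23.7) in Enl-WT and 39 counts and 9.78 CPM (5.93 to 15.2) in Enl-T1, with a log2 ratio of -0.97 (-1.76 to -0.25). It was under the minimum of 200 counts, and so not called, without likely doublets and within 1 kb of a TSS. In the other classes its ratios were 0.05, 0.18 and 0.32 with intervals that hold 0. Foxq1 in stroma stood just outside the fold with 0.58 (0.13 to 1.03) from 142 and 215 counts. Foxe3, the lens factor, had ratios of 0.46 (0.18 to 0.75) in nephron progenitors and 0.50 (0.18 to 0.82) in stroma with a peak that was 1064 bp wide in Enl-WT against 1563 bp in Enl-T1, and per kb its whole-library levels were 7.85 and 7.64 CPM.

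Foxl1 had opposite directions in 2 classes, with -0.30 (-0.53 to -0.06) in nephron progenitors and 0.23 (0.07 to 0.39) in stroma. Its exonic region was lower in nephron progenitors, at -0.80 (-1.16 to -0.45), with a peak of 1461 bp in Enl-WT against 878 bp in Enl-T1. In stroma the level per cluster was 50.1 CPM in Enl-WT and 38.9 CPM in Enl-T1 in cluster 1, but 28.0 and 38.4 CPM in cluster 5 and 42.6 and 57.0 CPM in cluster 6, so that the direction differed between clusters. Its neighbour on chromosome 8, Foxf1, had -0.09 (-0.34 to 0.17) and -0.13 (-0.34 to 0.09) in these classes. The other neighbours, Foxq1 with Foxf2 on chromosome 13 and Foxd2 with Foxe3 on chromosome 4, had whole-library ratios of 0.39 and 0.60, and of -0.10 and 0.51.

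Single regions passed the fold also in genes that did not pass it as a whole. Of the 177 shared regions 15 were higher in Enl-T1 and 10 lower as whole libraries, where 6.86% and 5.31% of regions over protein-coding genes were. In nephron progenitors 12 of 151 were higher (8.01% over all genes) and 19 lower (11.8%), in stroma 7 of 130 (5.82%) and 10 (5.19%), in ureteric epithelium 6 of 69 (2.88%) and 1 (2.59%), and in endothelium none of 38 (1.34%) and 2 (4%). No test was made of these counts. Foxn3, a checkpoint repressor, was level as a gene, with -0.10 in nephron progenitors and 0.00 in stroma, yet its intronic region 22 (chr12:99351620-99352500) went from 68 to 276 counts in nephron progenitors, a log2 ratio of 1.68 (1.13 to 2.27), and from 95 to 211 in stroma, 1.13 (0.62 to 1.66), with peaks of 857 and 852 bp. In ureteric epithelium the same region had 178 and 247 counts and a ratio of 0.15 (-0.26 to 0.56). Its middle, chr12:99351910-99352209 (GRCm38.p6, RefSeq, plus strand), is shown because here the peaks were nearly equal in width. It has 4 CG dinucleotides, in capitals, and no forkhead core motif:
Foxn3 region 22: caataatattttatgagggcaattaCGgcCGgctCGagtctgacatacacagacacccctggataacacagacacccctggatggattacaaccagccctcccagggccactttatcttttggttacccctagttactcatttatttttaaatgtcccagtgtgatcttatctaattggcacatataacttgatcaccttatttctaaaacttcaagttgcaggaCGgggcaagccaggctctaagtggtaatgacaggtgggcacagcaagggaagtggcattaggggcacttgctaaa

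Among the FOXO genes, Foxo3 had a ratio of -0.30 (-0.38 to -0.22) in nephron progenitors. Its intronic region 1 (chr10:42194596-42195847) went from 230 to 78 counts there, -1.90 (-2.46 to -1.36). Region 2 (chr10:42202353-42203300) went from 891 to 222 counts over all nuclei, -1.77 (-2.08 to -1.46). It was not called past the fold within any compared class. Enl-T1 had 194 nephron tubule nuclei against 1790 in Enl-WT, and 5 podocytes against 366. Whether the ratio of region 2 reflects these class sizes was not tested. The region at a Foxo3 start was lower in nephron progenitors, at -0.72 (-0.88 to -0.57), with a peak of 2007 bp in Enl-WT against 835 bp in Enl-T1. Foxo1 had an exonic region higher in nephron progenitors (chr3:52349718-52350594, 155 and 454 counts, 1.21) and an intronic one lower (chr3:52292800-52293633, 167 and 122 counts, -0.79), while the gene stood at -0.08 (-0.19 to 0.03). Foxo6 likewise had its 3′ region higher, at 0.83, and an intronic region lower, at -0.80, with widths that moved the same way, 1125 to 1655 bp and 1305 to 823 bp.

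Foxm1 stood at -0.37 (-0.52 to -0.21) in nephron progenitors, and its region 2 (chr6:128374780-128375761) went from 599 to 223 counts, -1.76 (-2.09 to -1.44), and lies within 1 kb of the start of Tex52. Its region at the Foxm1 start, shared with Rhno1, had 0.19 (0.00 to 0.38). Foxk1 had -0.34 (-0.45 to -0.23), with an exonic region at -1.03, and Foxk2 had an exonic region at -1.16 and -0.04 as a gene. Foxp1 stood at -0.00 in stroma and at -0.25 (-0.39 to -0.11) in endothelium. It had the ratio farthest from 0 among the 38 endothelial regions tested: an intronic region (chr6:99378931-99380530) went from 300 counts in Enl-WT to 19 in Enl-T1, -2.83 (-3.96 to -1.89), with peaks of 1600 and 855 bp. Foxj2 had its TSS region higher in ureteric epithelium, from 151 to 393 counts, 1.05 (0.66 to 1.46), with peaks of 896 and 1197 bp.

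Peak width moved with these ratios. Over the 177 shared forkhead regions, log2 of the width ratio and log2 of the CPM ratio had a Pearson r of 0.50 and a Spearman rho of 0.48, and over all 110706 shared regions 0.38 and 0.36. This is a description across regions of the same libraries. Of 25 regions past the fold in whole libraries, 10 were among the 120 whose widths differed by at most 20%. The same count was not made over all shared regions. The part of the width in each difference was not tested.

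**Figure D5:**
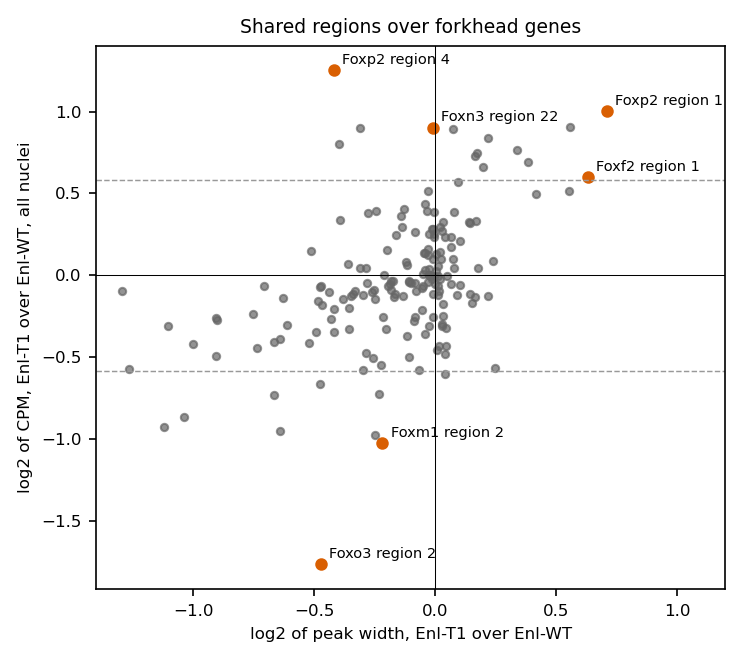
Log2 ratio of CPM (Enl-T1 over Enl-WT, all nuclei) against log2 ratio of peak width for the 177 shared regions over forkhead genes, with dashed lines at 1.5-fold. Foxp2 region 4 lies high at a smaller width and Foxn3 region 22 at an equal width, whereas Foxp2 region 1 and the Foxf2 region lie high at a larger width, and the points rise from left to right.

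Peaks of 1 library alone lay over 18 genes, of Enl-WT over 16 and of Enl-T1 over 9. They were weaker than shared regions, with a median of 424.5 counts for Enl-WT and 311 for Enl-T1, against 754 and 646 counts in shared regions. Foxp1 had 23 of Enl-WT with 10033 counts and 7 of Enl-T1 with 2455 counts, and Foxn3 had 12 with 4319 and 7 with 2091. Foxp2 was unlike them in these numbers, with 2 of Enl-WT of 331 counts and 5 of Enl-T1 of 2249 counts. Nephron progenitors held 49.3% of the counts in these Enl-T1 peaks over Foxp2, 47.9% in those over Foxp1 and 38.7% in those over Foxn3. They held 38.4% of all Enl-T1 counts in shared regions. Their share in peaks of Enl-T1 alone over all genes was not worked out, so no excess is read from these values. Peaks of Enl-WT alone, in order of their counts, lay over Foxo3 (5 peaks, 2611 counts), Foxk1 (4 peaks, 2541 counts), Foxj1 (1665 counts), Foxp4 (1159 counts), Foxq1 (1142 counts), Foxo1 (3 peaks, 1107 counts), Foxn1 (2 peaks, 1017 counts), Foxb1 (2 peaks, 1009 counts), Foxl2 (928 counts), Foxj3 (4 peaks, 882 counts), Foxj2 (634 counts), Foxa1 (510 counts) and Foxn4 (402 counts). Those of Enl-T1 alone lay over Foxd3, at the TSS of this neural crest factor (664 counts), Foxp4 (622 counts), Foxo1 (2 peaks, 580 counts), Foxn4 (458 counts), Foxj2 (288 counts) and Foxf2 (49 counts). In shared regions, Foxb1 had 3.501 CPM in Enl-WT against 3.75 CPM, with a log2 ratio of 0.10 (-0.19 to 0.38). Foxd3 had 5.53 against 5.11 CPM, at -0.11 (-0.35 to 0.12), and Foxj3 had 56.1 against 56.9 CPM, at 0.02 (-0.05 to 0.09), so that all 3 intervals held 0. Since peaks were called per library and Enl-WT was sequenced more deeply per nucleus, a region without a peak is not shown to lack counts.

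Genes around the forkhead factors were read from 5 lists. Over all genes tested, 0.559% to 2.06% passed the fold in a given direction, in whole libraries or a class. With 1 gene or none past it in each list, nothing is read from the counts that follow. Of 14 genes of PI3K-Akt signalling upstream of FOXO proteins, none passed the fold in whole libraries or in any of the 4 classes. Of 16 FOXO target genes only Trim63, a muscle ubiquitin ligase, did, being higher in stroma with 0.74 (0.30 to 1.19). Of 16 FOXM1 target genes only Cdk1, the mitotic kinase, did, being lower in endothelium with -0.63 (-1.02 to -0.25). The median over the 16 genes there was -0.02, against -0.01 over all genes. Foxm1 itself stood at -0.49 (-0.88 to -0.11) in endothelium, in regions it shares with Rhno1 and Tex52. A link between Foxm1 and Cdk1 was not tested. Of 13 Hedgehog pathway genes upstream of Foxf1, Foxf2 and Foxl1 only Ihh, a ligand, passed the fold, with -0.88 (-1.02 to -0.75) in whole libraries, -0.61 in stroma, -1.10 (-1.46 to -0.74) in ureteric epithelium and -0.72 in endothelium. Shh, another Hedgehog ligand, had -0.07 (-0.32 to 0.18) there. In stroma the Hedgehog targets Gli1 and Ptch1 had 0.02 (-0.08 to 0.12) and -0.08 (-0.14 to -0.01). Of 15 genes of motile cilia downstream of FOXJ1, 13 had shared regions and none passed the fold. The medians of the lists lay between -0.15 and 0.15 in every class.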

How the data were processed

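Single-nucleus ATAC-seq libraries (10x Genomics) of 1 Enl-WT and 1 Enl-T1 sample were processed by the authors with Cell Ranger ATAC 2.1.0 on mm10, per the submitters' processing notes. The deposited matrices hold whole-number counts of Tn5 cut sites per peak and barcode, and the share of even values was 91.1% in Enl-WT, against 88.0% in Enl-T1, since a fragment gives 2 cut sites. Peaks had been called per library, so peaks overlapping by at least 1 bp were joined into 176056 regions, of which 110706 held peaks of both. Mean peak width was 1012.67 bp in Enl-WT against 912.472 bp in Enl-T1, which enters the counts. Barcodes with 2000 to 100000 counts were kept. Total counts were 138176616 and 110265593.

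Regions over the gene body or 2 kb upstream (GENCODE M21) were assigned to genes. Nuclei of both libraries were clustered on 110462 shared regions, leaving out 177 of forkhead genes, with latent semantic components 2 to 30, 15 neighbours and Leiden resolution 1. Of 22 clusters 20 were named by marker lists, and the minimum of 50 CPM for leading genes in this naming was chosen with the clusters in view. Nuclei most like simulated doublets (7.71% of Enl-WT, 10.7% of Enl-T1) were kept and removed only as an alternative. That alternative removed 1352 Enl-T1 nuclei in all and clustered the rest anew. The Enl-T1 nephron progenitor class fell from 4205 nuclei to 2063 there, and to 2693 at Leiden resolution 2. Python 3.11.15, numpy 2.4.6, scipy 1.17.1, pandas 2.3.3, scikit-learn 1.9.0, leidenalg 0.10.2 and matplotlib 3.10.9 were used. Poisson intervals were computed on fragments, as counts divided by 2. On simulated counts with 200 changed genes, the calls recovered 100.0% in whole libraries (16847 genes), 99.5% in nephron progenitors (16388), 97.5% in stroma (16271), 96.0% in ureteric epithelium (15387) and 94.0% in endothelium (13174). Of unchanged genes, 0.00601%, 0.124%, 0.0937%, 0.113% and 0.743% passed the fold in the same order. The size of the difference given to the 200 genes is not stated here, so nothing about the reliability of the calls is read from these shares. Whether these shares hold for the comparison of the 2 libraries was not tested.

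The forkhead genes, marker lists and gene lists were chosen with earlier results of these data known. Values are given for genes that lead in a class of Enl-WT, pass 1.5-fold in a class, have peaks in 1 library alone or have the 5 highest levels per kb. The other genes are given by counts and ranges, and single regions and neighbouring genes were named after their values were seen. The values of 1 gene are not reported here, although it is included in the counts.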

Additional observations from a re-analysis of the deposited data

Results flagged for a closer look

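Foxl1 stood out because its log2 ratio of Enl-T1 to Enl-WT had opposite signs in 2 classes, with 0.23 in interstitial stroma and -0.30 in nephron progenitors, and neither interval held 0. With 1 library per group the difference between the classes was not tested, and neither ratio passed 1.5-fold. In nephron progenitors the Enl-T1 clusters lay below cluster 13 of Enl-WT (25.8 CPM), but their intervals overlapped that of cluster 3 (14.9 CPM).

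Peaks that only Enl-T1 had, and that no ratio above uses, held at least 500 counts in 5 regions. Foxd3 had 664 counts in region 1, at its TSS. Foxp2 had 509 counts in region 2, 707 in region 3 and 608 in region 5. Foxp4 had 622 counts in region 4. Counts of Enl-WT nuclei in these regions were not analysed here, so the size of these differences was not tested.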

How the results depend on the processing

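With 1 library per group, no replicate could be left out. No paired analysis was possible because each group has 1 library and the results come from no test. Of the summary counts, 28 values under alternatives stayed within 1.5 times the value reported and 9 moved. For whole libraries, where 1 gene passed the fold, 5 did with every peak of each library, 2 within 1 kb of a TSS, 2 by the share of nuclei after thinning to 1500 counts, 0 with at least 5000 counts per nucleus and 0 without likely doublets. Within classes, where 5 gene and class pairs passed, 18 did with every peak, 9 with a minimum of 50 counts and 17 by the thinned share. By the thinned share 13 genes led in a class in place of 8. The cause was not tested.

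Of values for single genes and classes 147 stayed, 32 moved and 2 reversed. The reversed ones were Foxq1 in stroma, at -0.76 with every peak and -0.18 by the thinned share. Foxp2 in nephron progenitors ranged from 0.65 over matched regions to 1.77 with every peak and passed the fold in 14 of 14 alternatives. Foxs1 passed in 13 of 14 in nephron progenitors (-0.90 to -0.58) and 13 of 14 in stroma (-1.04 to -0.53). The ratio of Foxf2 in ureteric epithelium lay beyond the fold in 13 of 13 (1.24 to 1.48), with no value over matched regions, and that of Foxa2 in endothelium in 14 of 14 (-2.15 to -0.83). With fewer than 200 counts, neither was called without likely doublets, nor Foxa2 within 1 kb of a TSS. These tallies include alternatives that could not change a ratio. The minimum of 50 counts left all of them at the value reported, as did a stricter rule for naming clusters. Within 1 kb of a TSS the ratios of Foxf2 and Foxs1 were also those reported, and leaving out cluster 0 could change nephron progenitors only. With every peak, a region without a peak in a library adds no counts for that library. Median-of-ratios scaling put the median of all genes at -0.11 in ureteric epithelium and in endothelium. Leaving out cluster 0 and leaving out nuclei with shared barcodes were alternatives chosen after seeing the data.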
